A study of Mus musculus with 12 samples.

Results

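The genes described here are 10 epithelial genes of mouse lung adenocarcinoma cells: Sox9, the water channels Aqp5 and Aqp8, the tight junction claudins Cldn2, Cldn4 and Cldn7, the keratins Krt7, Krt8 and Krt18, and the adhesion gene Cdh1. They were taken as every probe that carries one of these 10 symbols in the array reports, which gave 14 of 45281 probes. 9 of the 10 genes had a probe above background on enough arrays to be tested, and Cldn4 did not. Sox9, Aqp5, Aqp8 and Cldn2 were chosen because their signal was low with the triterpenoids, so the differences between a triterpenoid and DMSO are given for all members as a description, with no test.

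The cells were VC1, a line from a lung adenocarcinoma of a female A/J mouse, exposed for 6 h. The groups were 0.05 µM CDDO-Im, 0.1 µM CDDO-Me, 15 µM DMF and the vehicle DMSO, with 3 arrays each on 2 BeadChips. CDDO is a synthetic oleanane triterpenoid; CDDO-Me carries a methyl ester and CDDO-Im an imidazolide in place of its acid. DMF, dimethyl fumarate, is a smaller molecule of another chemical class. All are known activators of the stress-response factor NRF2. The 2 triterpenoids were given at different doses, so dose and compound cannot be told apart. All samples are 1 cell line, and the labels do not say whether the 3 samples of a group were separate cultures, so p-values measure the spread between these samples, which may be technical.

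Sox9 encodes a transcription factor that marks the distal tips of the growing lung, where progenitors of the airway and alveolar epithelium lie. Aquaporins pass water across cell membranes; AQP5 is the apical water channel of alveolar type 1 cells and of glands, and AQP8 is better known from gut, liver and pancreas. Claudins are the strands of tight junctions: CLDN2 forms a pore for cations and water, whereas CLDN4 and CLDN7 are usually counted among the claudins that seal the junction or shape its anion flow. KRT7, KRT8 and KRT18 are keratins of simple epithelia, KRT8 and KRT18 being the usual filament pair, and E-cadherin, the product of Cdh1, holds epithelial cells together at adherens junctions.

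The start regions of the genes that were lowest with the triterpenoids are shown first, to let the promoters be compared by eye. RefSeq promoter entries (mouse build GRCm38.p6) were matched for 8 of the 10 members, with 9 promoters in all, and not for Sox9 or Cdh1. Each line gives the 250 bases before the annotated start of transcription on the plus strand: Aqp5 at chr15:99590778-99591027, Aqp8 at chr7:123462044-123462293, Cldn2 at chrX:139800558-139800807 and Krt7 at chr15:101412153-101412402. Capitals mark matches to the 7 short motifs searched on both strands.
Aqp5: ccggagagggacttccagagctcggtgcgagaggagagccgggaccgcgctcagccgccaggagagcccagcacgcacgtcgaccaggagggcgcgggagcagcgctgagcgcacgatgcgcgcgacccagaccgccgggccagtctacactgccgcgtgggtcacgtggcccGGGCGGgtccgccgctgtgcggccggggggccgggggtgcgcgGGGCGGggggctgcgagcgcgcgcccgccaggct
Aqp8: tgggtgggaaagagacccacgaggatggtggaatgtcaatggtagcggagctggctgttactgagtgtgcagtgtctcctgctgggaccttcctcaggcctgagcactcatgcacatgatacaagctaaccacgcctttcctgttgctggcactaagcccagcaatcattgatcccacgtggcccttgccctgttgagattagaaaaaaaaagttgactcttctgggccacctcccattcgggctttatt
Cldn2: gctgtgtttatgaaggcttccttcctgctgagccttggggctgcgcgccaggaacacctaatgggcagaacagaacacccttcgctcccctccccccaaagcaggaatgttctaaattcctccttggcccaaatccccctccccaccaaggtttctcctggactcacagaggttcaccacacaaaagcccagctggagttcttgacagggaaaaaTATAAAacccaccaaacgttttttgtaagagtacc
Krt7: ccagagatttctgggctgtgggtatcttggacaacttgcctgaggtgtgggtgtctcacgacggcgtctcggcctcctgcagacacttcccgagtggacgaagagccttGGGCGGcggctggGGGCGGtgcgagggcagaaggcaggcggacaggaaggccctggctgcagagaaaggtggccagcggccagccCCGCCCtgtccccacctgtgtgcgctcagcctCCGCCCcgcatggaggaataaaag

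The capitals are GC boxes (GGGCGG, or its reverse complement) in Aqp5 and Krt7 and a TATA box (TATAAA) that begins 35 bases before the start in Cldn2. Aqp5 held 2 GC boxes, Krt7 held 4, and Aqp8 held no match to any of the 7. GC boxes were found in 4 of the 9 member promoters and in 32.7% of 32851 promoters of the same length. A TATA box was found in 1 of 9, against 12.4% of all promoters, and an AP-1 element (TGANTCA) in 1 of 9, that of Cldn4, against 6.75%. The core of the antioxidant response element bound by NRF2 (TGACNNNGC) had no match in the 9 promoters and a match in 10.2% of all. The CCAAT box, the SOX core ACAAT and the forkhead core TGTTTAC also had no match, against 33.8%, 27.7% and 3.17% of all promoters. GGGCGG does not overlap the other motifs in these 4 promoters.

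In these cell populations, fewer cells of a type and less RNA per cell cannot be told apart. Between 32.7% and 41.3% of probes were above background on an array (detection p under 0.05), and mean raw signal was 439.6 to 683.7. Of the 12 arrays, 2 stood apart. CDDO-Im replicate 2 had a median Pearson correlation of 0.935 with the other arrays, and DMSO replicate 1 had 0.915, against 0.99 to 0.995 for the remaining 10. Both lie on chip 1, and the differences of the members from DMSO are therefore also given for the 10 arrays without them. Of list genes, only some of the calls that this other fit changes are named. A pair of known NRF2 targets served as a check of the treatments. Nqo1, a quinone reductase, differed from DMSO by a log2 value of 1.59 with CDDO-Im, 1.80 with CDDO-Me and 1.5 with DMF, and by 1.98, 1.92 and 1.61 with 10 arrays. Hmox1, heme oxygenase, differed by 4.41, 3.8 and 1.31 in the same order, and the limma adjusted p of its DMF difference was 0.44; with 10 arrays the values were 5.13, 4.29 and 1.79, and that p was 0.000153.

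The lung label was set against marker genes. Nkx2-1, the lineage factor of lung and thyroid, and Abca3, the lipid transporter of alveolar type 2 cells, were detected on 12 of 12 arrays, and Sftpb on 11. The surfactant genes Sftpc, Sftpa1 and Sftpd, defining products of type 2 cells, were detected on 0 arrays. Scgb1a1, the club cell secretoglobin, was detected on 1, but the airway list genes Foxj1 on 11 and Calca on 12. The alveolar type 1 genes Ager and Pdpn were detected on 12 but Hopx on 0. Cdx2 and Hnf4a, better known from gut and liver, were detected on all 12, as was the mesenchymal filament gene Vim. The epithelial adhesion gene Epcam, the leukocyte gene Ptprc and the endothelial gene Pecam1 were detected on 0. The macrophage gene Cd68 and the endothelial gene Kdr were detected on 11. An array detected 3 to 5 of 12 type 2 markers with a probe, 6 to 7 of 10 type 1 markers and 1 to 3 of 11 airway markers. It detected 1 to 2 of 9 leukocyte markers and 1 to 2 of 8 endothelial markers. Krt8, Krt18, Krt7 and Cdh1 were detected on all 12.

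Sox9 signal was lower with both triterpenoids than with DMF or DMSO. On the log2 scale of background-corrected, quantile-normalized signal, its brighter probe read 8.11, 8.01 and 7.38 with CDDO-Im, 7.60, 7.28 and 7.37 with CDDO-Me, 9.26, 8.80 and 8.79 with DMF, and 9.04, 9.67 and 9.15 with DMSO. Every triterpenoid array lay below every DMF and DMSO array, and the DMF and DMSO arrays overlapped. The fitted log2 difference from DMSO, which allows for the chip and so can differ slightly from the difference of group means, was -1.46 ± 0.184 with CDDO-Im and -1.74 ± 0.19 with CDDO-Me (SE, n = 3 arrays a group), a change in signal of -63.6% and -70%. Within the first and the second chip it was -1.3 and -1.78 with CDDO-Im and -1.76 and -1.83 with CDDO-Me. These values rest on few arrays. CDDO-Im replicate 3 and DMSO replicate 3 were alone of their groups on the second chip, and CDDO-Me replicate 1 on the first. With DMF the fitted difference from DMSO was -0.20 ± 0.19, with a 95% interval of -0.62 to 0.22. With 10 arrays these differences were -1.67, -1.92 and -0.38. Among 13280 genes ordered from the lowest difference, Sox9 stood at place 59 with CDDO-Im, 8 with CDDO-Me and 3761 with DMF, and with 10 arrays at 2, 4 and 729. Sox9 was chosen for its low signal with the triterpenoids, so its places with them only describe that choice.

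A second, dimmer Sox9 probe was above background on 6 arrays, which were the 3 DMF and the 3 DMSO arrays, and on no triterpenoid array. It averaged 4.92 with CDDO-Im, 4.87 with CDDO-Me, 5.73 with DMF and 6.25 with DMSO. Since the triterpenoid groups have only a bound on this probe, its signal was at least 1.67-fold lower with CDDO-Im and at least 1.98-fold lower with CDDO-Me than with DMSO. The bound compares the mean of the DMSO arrays with, on each triterpenoid array, the higher of the lowest detected signal and the reading of the probe itself; bounds for other genes were made the same way. On the authors' own normalized values the brighter probe differed less, by -0.94 with CDDO-Im and -1.08 with CDDO-Me.

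Cldn2, the pore-forming claudin, was lower on every treated array than on any DMSO array. It read 11.29, 11.01 and 11.10 with CDDO-Im, 10.91, 11.16 and 10.92 with CDDO-Me, 12.14, 11.91 and 12.05 with DMF, and 12.66, 12.71 and 12.74 with DMSO. The triterpenoid arrays lay lowest, DMF lay between, and DMSO highest, with no overlap between these 3 levels. The difference from DMSO was -1.57 ± 0.144 with CDDO-Im, -1.71 ± 0.149 with CDDO-Me and -0.67 ± 0.149 with DMF. Within the first and the second chip, on the same few arrays as for Sox9, it was -1.54 and -1.65 with CDDO-Im and -1.77 and -1.71 with CDDO-Me. With 10 arrays the 3 differences were -1.53, -1.72 and -0.69. Its second probe gave -1.89, -1.77 and -0.72 with 12 arrays.

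Aqp8 and Aqp5, the water channels, were also lowest with the triterpenoids. Aqp8 read 8.71, 9.32 and 8.75 with CDDO-Im, 8.67, 8.65 and 8.58 with CDDO-Me, 9.32, 9.49 and 9.32 with DMF, and 11, 9.70 and 10.07 with DMSO. All treated arrays lay below all DMSO arrays, and CDDO-Im replicate 2 reached the level of DMF while DMSO replicate 1 was the highest of the 12. The difference from DMSO was -1.33 ± 0.298 with CDDO-Im, -1.58 ± 0.307 with CDDO-Me and -0.84 ± 0.307 with DMF. Without these 2 arrays the values were -1.15, -1.27 and -0.52. The second Aqp8 probe, on which DMSO replicate 1 read 9.61 and the other DMSO arrays 9.43 and 9.41, gave -1.15, -1.25 and -0.47 with 12 arrays.

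Aqp5 read 12.85, 13.14 and 12.82 with CDDO-Im, 12.44, 12.51 and 12.43 with CDDO-Me, 13.43, 13.40 and 13.28 with DMF, and 13.89, 13.50 and 13.77 with DMSO. The 4 groups did not overlap with each other, CDDO-Me being lowest and DMSO highest. The difference from DMSO was -0.78 ± 0.155 with CDDO-Im, -1.25 ± 0.16 with CDDO-Me and -0.34 ± 0.16 with DMF. As a change in signal these triterpenoid values are -41.9% and -58%. With 10 arrays the 3 differences were -0.80, -1.18 and -0.28.

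Krt7, a keratin of simple epithelia, followed the same order with smaller differences. It read 12.62, 13.25 and 12.76 with CDDO-Im, 12.64, 12.83 and 12.72 with CDDO-Me, 13.01, 13.03 and 13.13 with DMF, and 13.95, 13.39 and 13.44 with DMSO. All 9 treated arrays lay below all DMSO arrays. The difference from DMSO was -0.72 ± 0.207 with CDDO-Im, -0.85 ± 0.214 with CDDO-Me and -0.52 ± 0.214 with DMF, and -0.73, -0.70 and -0.37 with 10 arrays.

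**Figure D1:**
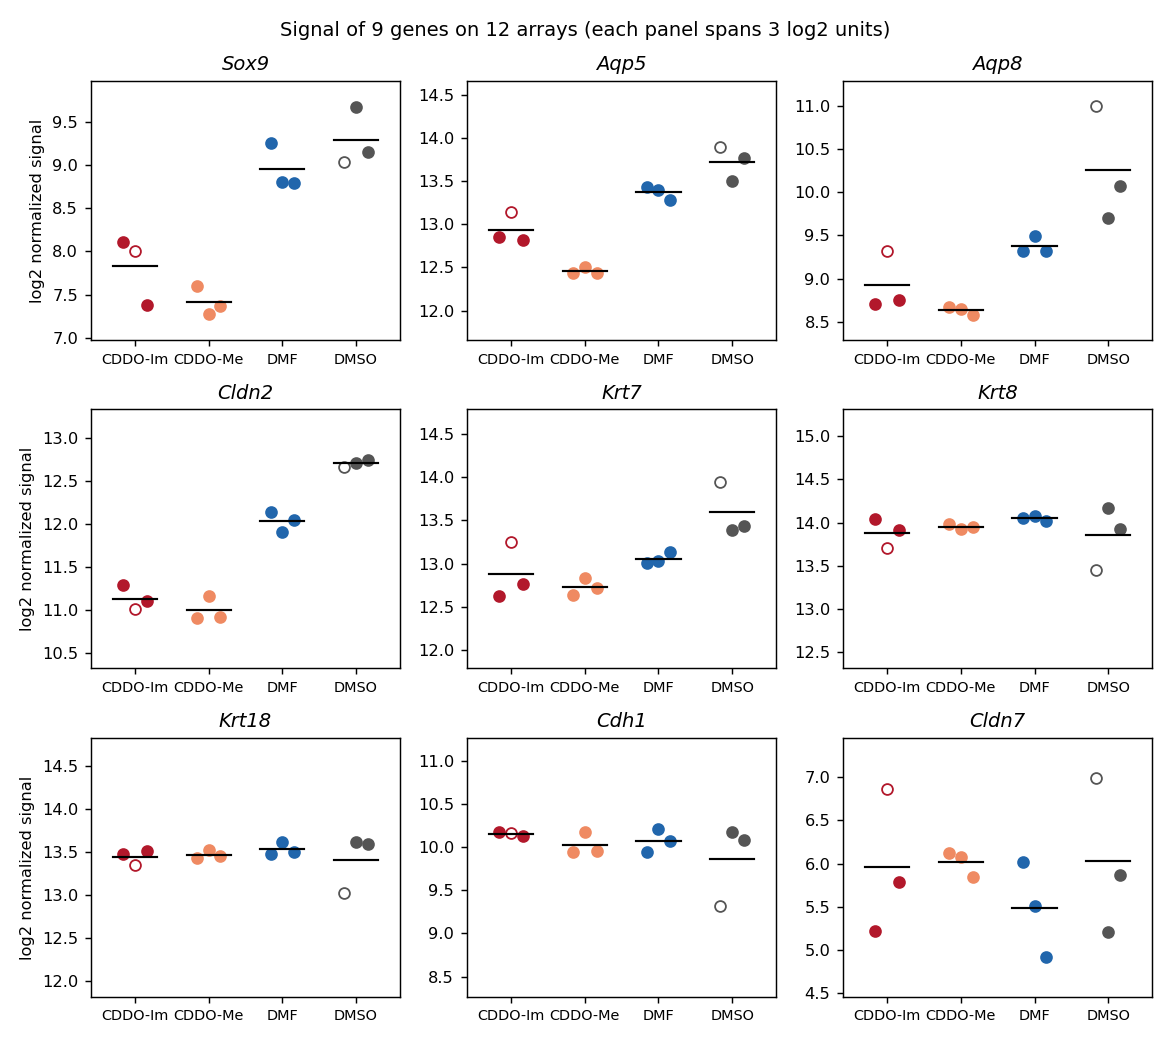
Log2 normalized signal (y axis) of the 9 tested genes on each of 12 arrays, by treatment (x axis); points are arrays, black lines are means of 3, and the hollow points are CDDO-Im replicate 2 and DMSO replicate 1. Sox9, Aqp5, Aqp8, Cldn2 and Krt7 sit lower on every triterpenoid array than on any DMSO array, and Krt8, Krt18, Cdh1 and Cldn7 overlap.

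The filament pair Krt8 and Krt18 and the adhesion gene Cdh1 were near their DMSO level. Krt8 read 14.04, 13.70 and 13.91 with CDDO-Im, 13.98, 13.93 and 13.95 with CDDO-Me, 14.05, 14.08 and 14.02 with DMF, and 13.45, 14.17 and 13.93 with DMSO. DMSO replicate 1 was the lowest array and DMSO replicate 2 the highest, so the groups overlapped. The Krt8 difference from DMSO was 0.035 with CDDO-Im (95% interval -0.39 to 0.46), 0.098 with CDDO-Me (-0.34 to 0.53) and 0.19 with DMF (-0.24 to 0.63). Krt18 differed by 0.033, 0.014 and 0.079, with intervals from -0.37 at the lowest to 0.46 at the highest.

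Cdh1 read 10.18, 10.16 and 10.13 with CDDO-Im, 9.94, 10.18 and 9.96 with CDDO-Me, 9.94, 10.21 and 10.07 with DMF, and 9.32, 10.17 and 10.08 with DMSO. Its difference from DMSO was 0.30 ± 0.208 with CDDO-Im, 0.12 ± 0.214 with CDDO-Me and 0.17 ± 0.214 with DMF. DMSO replicate 1 was the lowest of its group for all 3 of these genes, and without it and CDDO-Im replicate 2 the Cdh1 differences were 0.033, -0.11 and -0.059. For Krt8 they were -0.072, -0.077 and 0.017, and for Krt18 -0.11, -0.14 and -0.079. A second Cdh1 probe, for a cDNA clone, was detected on 0 arrays.

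The 2 sealing claudins were at the edge of detection. Cldn7 read 5.22, 6.86 and 5.79 with CDDO-Im, 6.12, 6.08 and 5.84 with CDDO-Me, 6.02, 5.51 and 4.92 with DMF, and 6.99, 5.21 and 5.87 with DMSO. It was above background on 11 of 12 arrays, all but DMF replicate 3, and its 2 highest readings came from the arrays that stood apart. Its difference from DMSO was -0.068 with CDDO-Im, 0.11 with CDDO-Me and -0.42 with DMF, each with an SE near 0.5 (0.487 to 0.502). Cldn4 was detected on 0 of 12 arrays, with raw signals of 60.3 to 81.4, and no difference is given.

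Set side by side, 5 of 9 tested members had all 3 arrays below DMSO with CDDO-Im and the same 5, Sox9, Aqp5, Aqp8, Cldn2 and Krt7, with CDDO-Me. Over all genes tested, groups were separated in that direction for 5.67% with CDDO-Im and 13.9% with CDDO-Me. Since the members were picked on the same arrays, these counts only describe the choice.

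**Figure D2:**
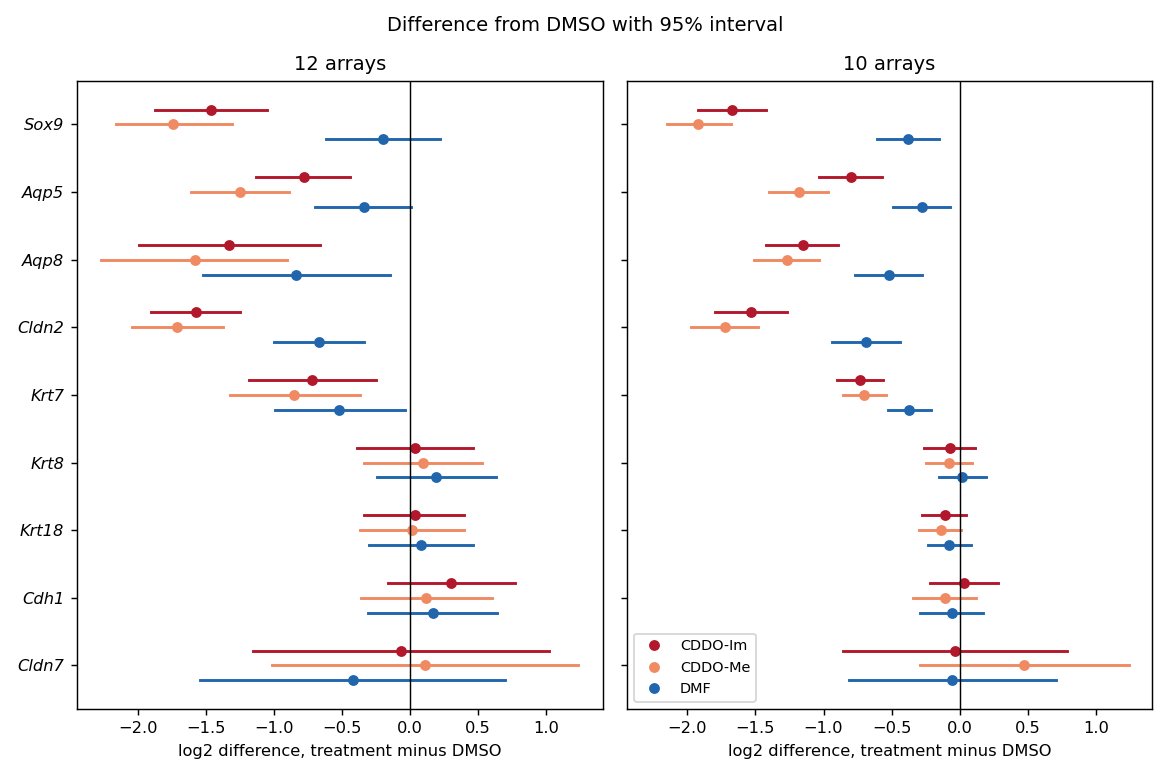
Log2 difference from DMSO (x axis) of 9 genes (y axis) with CDDO-Im, CDDO-Me and DMF; points are fitted differences and bars are 95% intervals, with 12 arrays at left and 10 at right. Sox9, Aqp5, Aqp8, Cldn2 and Krt7 lie left of 0 with both triterpenoids in both fits, and the intervals of Krt8, Krt18, Cdh1 and Cldn7 include 0 in the fit of 12 arrays.

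The repeat probes of Sox9, Aqp8 and Cldn2 share the RNA but not the probe. For each of the 3 genes the second probe was lower on every triterpenoid array than on any DMSO array, as was the first.

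**Figure D3:**
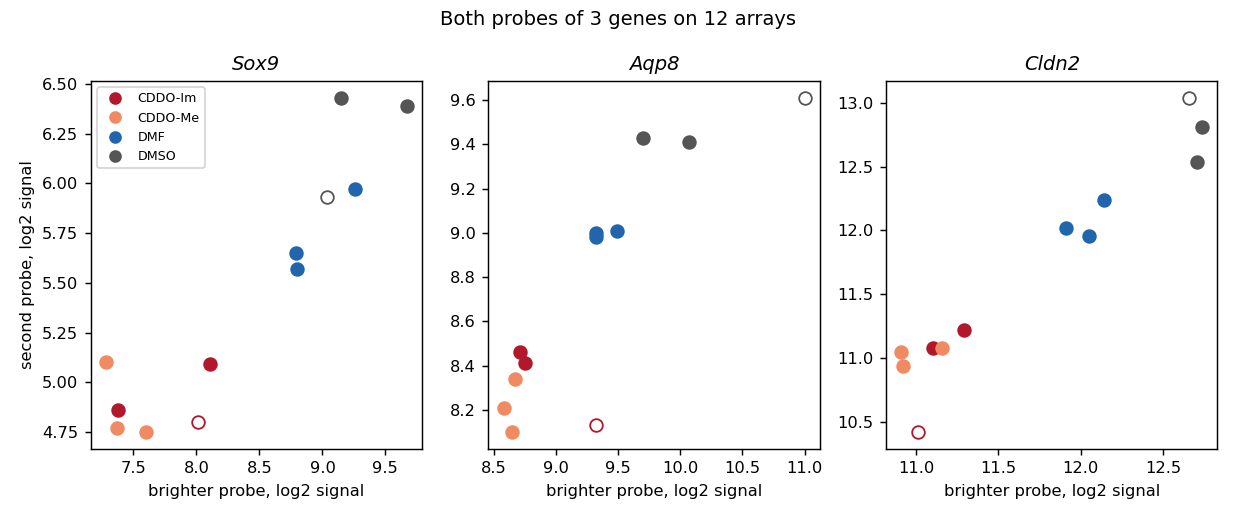
Log2 signal of the second probe (y axis) against the brighter probe (x axis) of Sox9, Aqp8 and Cldn2 on 12 arrays, coloured by treatment; hollow points are CDDO-Im replicate 2 and DMSO replicate 1. The triterpenoid arrays read lower than the DMF and DMSO arrays on the second probe in each panel, and on the Sox9 second probe the triterpenoid arrays were all below detection.

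CDDO-Me and DMF were compared directly. The contrast has no DMSO array in it, but it uses the CDDO-Me arrays on which Sox9, Aqp5, Aqp8 and Cldn2 were chosen for being low, so their sign and p-values here are not independent of that choice. Sox9 and Cldn2 were lower with CDDO-Me than with DMF, by log2 values of -1.54 ± 0.184 (limma adjusted p = 0.0318) and -1.04 ± 0.144 (adjusted p = 0.0435), and all 3 CDDO-Me arrays lay below all 3 DMF arrays for both. These 2 were the members called of 9, all in the lower direction, beside 0.0678% of all genes called lower; nothing is read from this count, since the choice favours it. Aqp5 differed by -0.91 ± 0.155 (adjusted p = 0.093), Aqp8 by -0.74 ± 0.298 (adjusted p = 1.0) and Krt7 by -0.33 ± 0.207 (adjusted p = 1.0), none of which passed. Groups of 3 did not overlap for 6 of 9 members in the lower direction, the others being Aqp5, Aqp8, Krt7 and Krt8, against 10.2% of all genes.

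The 2 calls were close to the threshold. Both were lost with median scaling, with the replicate number as a block (adjusted p = 0.101 for Sox9 and 0.0913 for Cldn2) and with the mean of kept probes, and that of Cldn2 with every kept probe and with detection on all arrays. In the fit of every kept probe, the second probe of neither gene was called. That of Sox9 differed by -0.86 (limma adjusted p = 0.418), using CDDO-Me readings below detection, and that of Cldn2 by -1.05 (0.322). Over 25 other settings the adjusted p ran between 0.000104 and 0.869 for Sox9 and between 0.000922 and 1.0 for Cldn2. With 1 array left out, Sox9 stayed called only without CDDO-Im replicate 2, DMSO replicate 1 or DMSO replicate 2, and Cldn2 only without CDDO-Im replicate 2 or DMSO replicate 1. With 10 arrays, 5 members were called lower, namely Sox9, Aqp5, Aqp8, Cldn2 and Krt7, where 2.3% of all genes were. Neither array left out is a CDDO-Me or DMF array, and the 5 differences were the same in both fits. Only their SE was smaller, for Sox9 0.0895 against 0.184 and for Krt7 0.0607 against 0.207. The added calls thus go with a smaller shared estimate of the spread and not with larger differences.

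CDDO-Im against DMF uses the CDDO-Im arrays that served in the same choice, so the signs, p-values and counts of those 4 genes are again not independent of it. Sox9 differed by -1.26 ± 0.19 (limma adjusted p = 0.133), Cldn2 by -0.90 ± 0.149 (adjusted p = 0.143) and Aqp5 by -0.44 ± 0.16 (adjusted p = 0.973). The groups did not overlap for these 3 of 9 members, against 6.08% of all genes in that direction. No member of 9 was called, 3 had an unadjusted p under 0.05, and limma called 0 of all 13280 genes (441 at an unadjusted p under 0.05). With 10 arrays it called the same 5 members as in the comparison of CDDO-Me with DMF, where 0.655% of all genes were called lower. The arrays left out were CDDO-Im replicate 2 and DMSO replicate 1. Leaving out only DMSO replicate 1 gave 2 calls, beside 14 of all 13280 genes called lower.

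DMF against DMSO shares the DMSO arrays with the comparisons that chose the members. No member of 9 was called by limma, 3 were lower at an unadjusted p under 0.05, and 0.0226% of all genes were called lower. Cldn2 came nearest with -0.67 (adjusted p = 0.144), and Aqp8 (adjusted p = 0.58), Krt7 (0.661), Aqp5 (0.661) and Sox9 (0.694) followed. The DMF and DMSO groups did not overlap for 4 members, Aqp5, Aqp8, Cldn2 and Krt7, against 14.7% of all genes in that direction. With 10 arrays, Cldn2 (-0.69), Aqp8 (-0.52) and Krt7 (-0.37) were called lower, where 4.26% of all genes were, and Sox9 (-0.38) and Aqp5 (-0.28) were not.

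CDDO-Im and CDDO-Me were compared at unequal doses. Limma called 0 of 9 members and 0 of 13280 genes (206 at an unadjusted p under 0.05), and 0 of 9 with 10 arrays, where 0.136% of all genes were called. Aqp5 was the member at an unadjusted p under 0.05, with a log2 difference of 0.47 (95% interval 0.11 to 0.82, adjusted p = 1.0), and its 3 CDDO-Im arrays lay above its 3 CDDO-Me arrays. Aqp8 was separated the same way, so groups did not overlap for 2 of 9 members, against 8.65% of all genes. For Sox9 the difference was 0.28 (-0.14 to 0.70) and for Cldn2 0.13 (-0.20 to 0.47).

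The other genes of these families were read from lists. Of 20 further claudin genes on the array, 9 were tested and 0 were called by limma in any of the 6 comparisons with 12 arrays; against DMSO, 1 was lower at an unadjusted p under 0.05 with CDDO-Im, 0 with CDDO-Me and 0 with DMF, and 0 between treatments. The smallest p belonged to Cldn18, the claudin of lung and stomach, with CDDO-Im (-0.43 ± 0.152, adjusted p = 0.29), to Cldn6 with CDDO-Me (-0.39 ± 0.191, adjusted p = 0.677) and to Cldn12 with DMF (0.63 ± 0.413, adjusted p = 0.661). With 10 arrays Cldn18 was called lower with CDDO-Im (-0.36, adjusted p = 0.0376), where 5% of all genes were, and 0 others in any comparison. Their median difference was 0.11 with CDDO-Im, -0.043 with CDDO-Me and -0.12 with DMF, where the median of all genes was 0.06, -0.00046 and -0.0039. Their range was -0.43 to 0.52 with CDDO-Im and -0.39 to 0.52 with CDDO-Me; Cldn2, chosen for its low values in these comparisons, is not set against it.

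Of 10 further aquaporins, 4 were tested. Aqp11, which is known as an aquaporin of intracellular membranes, fell with both triterpenoids, by 0.85 ± 0.152 with CDDO-Im and by 1.09 ± 0.157 with CDDO-Me on the log2 scale (limma adjusted p = 0.0198 and 0.00773), where 0.392% and 0.399% of all genes were called lower. It read 7.83, 7.55 and 7.54 with CDDO-Im, 7.48, 7.42 and 7.23 with CDDO-Me, 8.19, 7.96 and 8.02 with DMF, and 8.32, 8.54 and 8.61 with DMSO. With DMF the difference was -0.41 (adjusted p = 0.621). The CDDO-Im call was lost without CDDO-Im replicate 3, CDDO-Me replicates 1 or 2, or DMSO replicate 3, and the CDDO-Me call without CDDO-Me replicates 1 or 3, or DMSO replicate 3. With 10 arrays Aqp11 was called lower with all 3 treatments (-0.89, -1.17 and -0.49), beside 5%, 5.54% and 4.26% of all genes. Aqp1, Aqp3 and Aqp4 were not called with 12 arrays, their differences from DMSO lying between -0.35 and 0.60. Aqp1, the water channel of red cells and endothelium, differed by 0.40 and 0.15 with 12 arrays, but by -0.53 with CDDO-Im (limma adjusted p = 0.0262) and -0.56 with CDDO-Me (0.0137) with 10 arrays, where it was called lower beside 5% and 5.54% of all genes; its direction thus rests on CDDO-Im replicate 2 and DMSO replicate 1.

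The keratins divided. Of 12 further keratins on the array, 11 were tested, and with CDDO-Im 4 were called higher and 0 lower, with CDDO-Me 3 higher and 0 lower, and with DMF 1 higher and 0 lower; the shares of all genes called higher were 1.42%, 1.02% and 0.324%. With 10 arrays the counts were 4 higher and 3 lower with CDDO-Im, 3 higher and 2 lower with CDDO-Me and 4 higher and 0 lower with DMF, beside 5.75%, 5.55% and 4.16% of all genes called higher. The lower ones were Krt13 (-0.67 with CDDO-Im and -0.80 with CDDO-Me) and Krt20 (-0.63 and -0.33) with both triterpenoids, and Krt23 (-0.63) with CDDO-Im. Of all genes, 5% and 5.54% were called lower with CDDO-Im and CDDO-Me in that fit. The genes called with 12 arrays were Krt5 and Krt14, the filament pair of basal cells, and Krt16 and Krt17, keratins of stressed or wounded epithelium. Krt5 was above background on all 9 treated arrays and on 0 DMSO arrays. It read 6.10, 6.25 and 6.29 with CDDO-Im, 5.93, 5.72 and 5.69 with CDDO-Me, 5.96, 6.05 and 5.57 with DMF, and 4.82, 4.67 and 4.67 with DMSO. That is at least 1.91-fold higher with CDDO-Im, at least 1.41-fold higher with CDDO-Me and at least 1.49-fold higher with DMF than with DMSO. The limma adjusted p-values, 0.00123, 0.0106 and 0.0165 in that order, belong to fitted differences that use DMSO readings below detection. Krt5 passed the detection filter only through treated arrays, which favours a call. Nothing is therefore read from these p-values or from its place in the counts.

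Krt14 read 14.41, 14.44 and 14.36 with CDDO-Im, 14.39, 14.31 and 14.48 with CDDO-Me, 14.21, 14.23 and 14.21 with DMF, and 13.27, 13.73 and 13.69 with DMSO. It rose by 0.84 ± 0.153 with CDDO-Im (limma adjusted p = 0.021) and 0.82 ± 0.157 with CDDO-Me (0.036), and with DMF the difference was 0.64 (0.211). Krt16 read 8.08, 9.55 and 8.15 with CDDO-Im, 8.39, 8.18 and 8.16 with CDDO-Me, 7.22, 7.59 and 7.10 with DMF, and 6.74, 4.95 and 5.41 with DMSO, where 2 of the 3 arrays detected it. It rose by 2.89 ± 0.466 with CDDO-Im (adjusted p = 0.0116) and 2.64 ± 0.481 with CDDO-Me (0.0265), and with DMF the difference was 1.70 (0.357). Krt17, detected on 0 DMSO arrays, was at least 2.40-fold higher with CDDO-Im. Its highest reading, 7.49, came from CDDO-Im replicate 2. The fitted difference was 1.70 with 12 arrays (limma adjusted p = 0.0403) and 1.09 with 10. Krt17 too passed the filter only through treated arrays, so nothing is read from that p-value. Krt14, Krt16 and Krt17 are close relatives whose probes may share transcripts, which the files do not resolve.

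Leaving out 1 array showed how far these keratin calls rested on single arrays. Krt5 with CDDO-Im was called in all 12 such fits. Its CDDO-Me call was lost without any 1 CDDO-Me array or DMSO replicate 3, and its DMF call without any 1 CDDO-Me array, DMF replicates 1 or 2, or DMSO replicate 3. Krt14, with either triterpenoid, stayed called only without CDDO-Im replicate 2, DMSO replicate 1 or DMSO replicate 2. Krt16 lost its CDDO-Im call without CDDO-Im replicate 3 or DMSO replicate 3, and its CDDO-Me call stayed only without CDDO-Im replicates 1 or 2, or DMSO replicates 1 or 2. Krt17 stayed called only without CDDO-Im replicates 1 or 2, and in 8 of 24 alternatives in all.

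**Figure D4:**
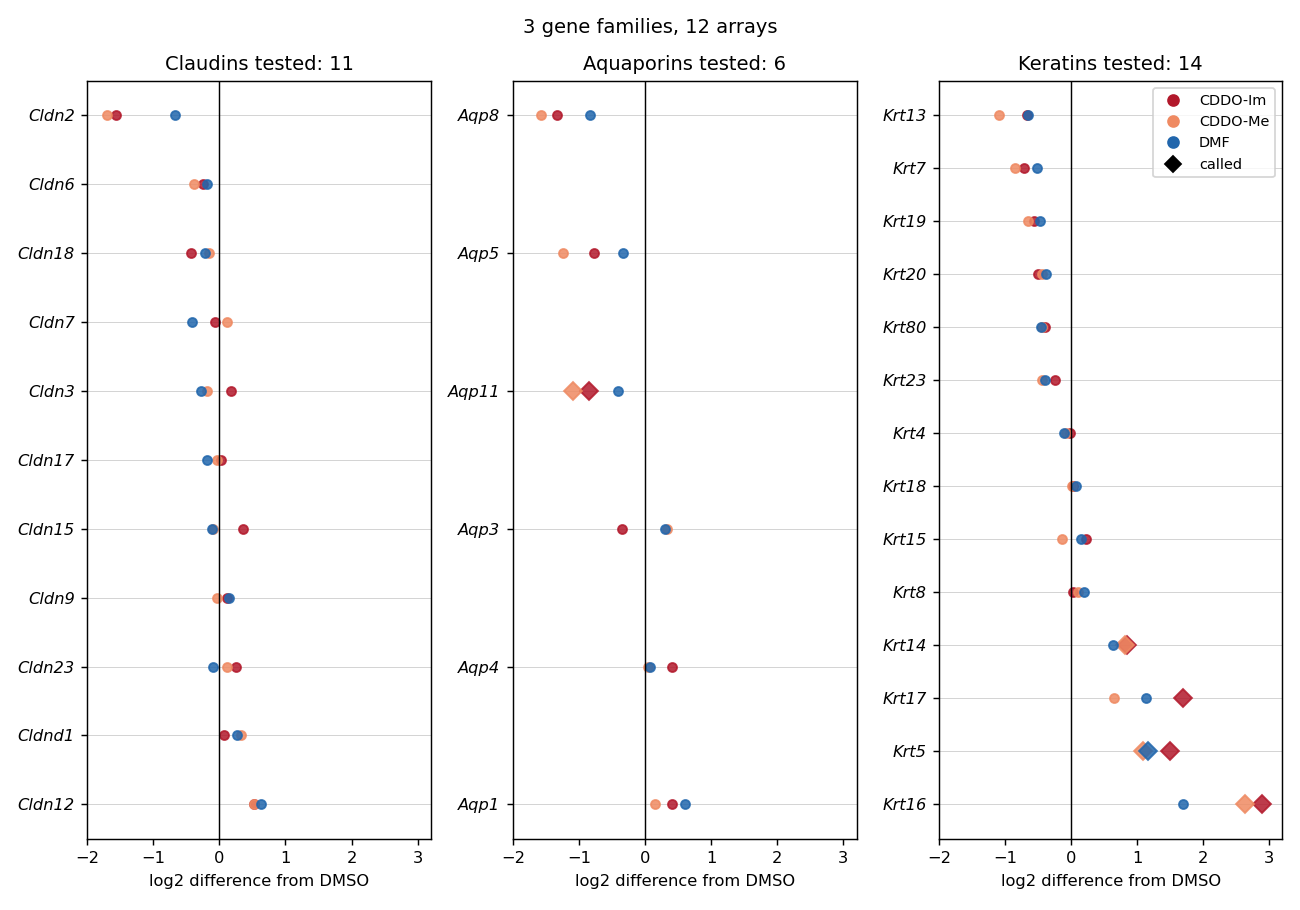
Log2 difference from DMSO (x axis) of every tested claudin, aquaporin and keratin (y axis) with CDDO-Im, CDDO-Me and DMF in the fit of 12 arrays; diamonds mark genes outside the 9 described members that passed an adjusted p of 0.05. Cldn2, Aqp8 and Aqp5, chosen for low values, lie at the low end of the panels, and Krt5, Krt14, Krt16 and Krt17 at the high end of the keratins.

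Other junction genes were called only with 10 arrays. Of 25 tight junction partners on the array 19 were tested, and of 24 adherens junction and desmosome genes 17 were, with 0 called by limma in any of the 6 comparisons with 12 arrays. Between treatments 0 had an unadjusted p under 0.05. Against DMSO, at an unadjusted p under 0.05, the tight junction list had 2 higher and 2 lower genes with CDDO-Im, 2 higher and 0 lower with CDDO-Me and 1 of each with DMF; the adherens list had 0 higher in all and 2, 1 and 2 lower. The smallest p belonged to Cgnl1, paracingulin, with all 3 treatments against DMSO (0.75 ± 0.218 with CDDO-Im, 0.69 ± 0.224 with CDDO-Me and 0.76 ± 0.224 with DMF, adjusted p = 0.176, 0.339 and 0.413). In the adherens list it was Pkp2, the desmosomal plakophilin, with -0.63 ± 0.157, -0.70 ± 0.162 and -0.54 ± 0.162 in the same order (adjusted p = 0.0983, 0.0946 and 0.431). With 10 arrays Cgnl1 was called higher (0.49, 0.44 and 0.51) and Pkp2 lower (-0.41, -0.57 and -0.41) with CDDO-Im, CDDO-Me and DMF, among 2, 1 and 1 higher and 1, 1 and 0 lower tight junction genes and 1, 2 and 1 lower adherens genes. Of all genes, 5.75%, 5.55% and 4.16% were called higher in those fits and 5%, 5.54% and 4.26% lower. Nothing is read from these few calls.

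Among 11 tested epithelial transcription and splicing factors, 2 were called higher and 0 lower with each triterpenoid. The shares of all genes called higher were 1.42% with CDDO-Im and 1.02% with CDDO-Me. With 10 arrays the counts were 3 higher and 1 lower with CDDO-Im, 4 and 2 with CDDO-Me, and 3 and 1 with DMF. Of all genes, 5.75%, 5.55% and 4.16% were called higher and 5%, 5.54% and 4.26% lower in that fit. Foxa2, a forkhead factor of lung and gut epithelium, read 8.52, 8.53 and 8.46 with CDDO-Im, 8.68, 8.47 and 8.58 with CDDO-Me, 7.91, 7.68 and 7.84 with DMF, and 7.08, 7.29 and 7.18 with DMSO. It rose by 1.32 ± 0.13 with CDDO-Im (limma adjusted p = 0.000714) and by 1.43 ± 0.134 with CDDO-Me (0.000519), stayed called whichever array was left out, and differed by 0.66 with DMF (0.103; 0.59 and 0.00298 with 10 arrays). Esrp2, an epithelial splicing regulator, rose by 0.75 ± 0.136 and 0.79 ± 0.14 (adjusted p = 0.0204 and 0.0238). Its CDDO-Im call stayed only without CDDO-Im replicate 2, CDDO-Me replicate 3, or DMSO replicates 1 or 2, and its CDDO-Me call only without CDDO-Im replicates 1 or 2, or DMSO replicates 1 or 2. The list's median was 0.14 with CDDO-Im and 0.049 with CDDO-Me.

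**Figure D5:**
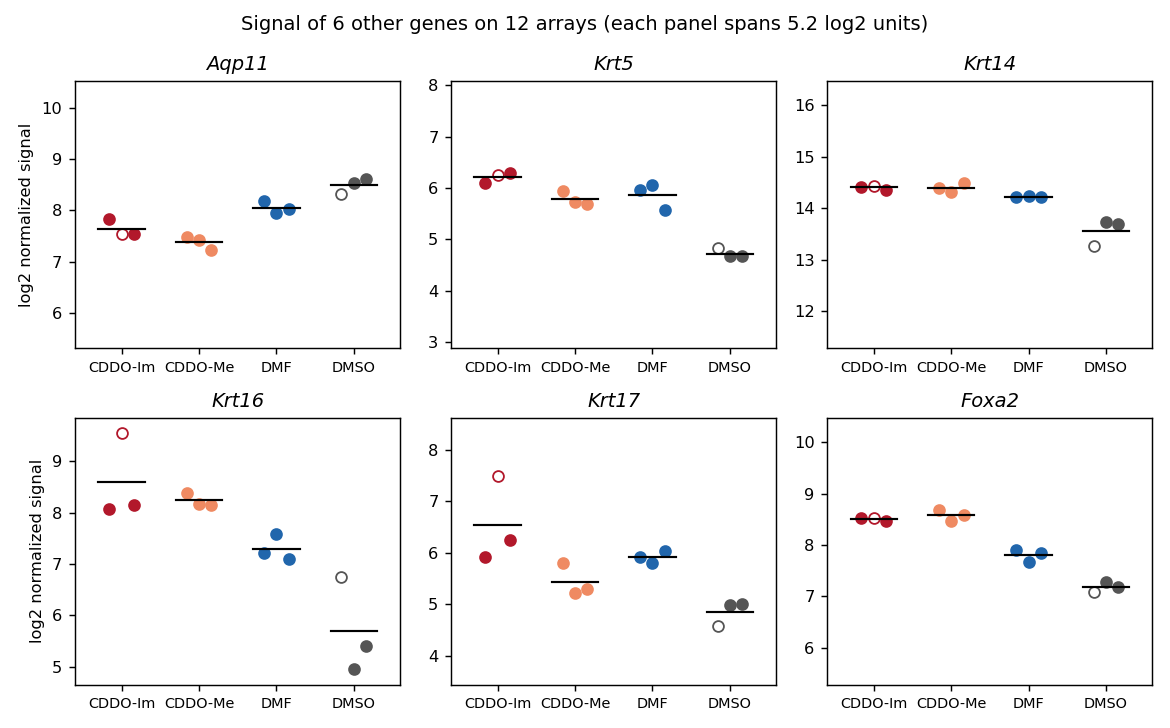
Log2 normalized signal (y axis) of Aqp11, Krt5, Krt14, Krt16, Krt17 and Foxa2 on each of 12 arrays by treatment (x axis); points are arrays, black lines are means of 3, and hollow points are CDDO-Im replicate 2 and DMSO replicate 1. Aqp11 is lower on all treated arrays than on any DMSO array, and the other 5 genes are higher.

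Of 6 further SOX genes tested, Sox21 fell by 0.66 ± 0.141 with CDDO-Im (limma adjusted p = 0.0478). It was the 1 called, beside 0.392% of all genes called lower. The call stayed only without CDDO-Im replicate 2, DMSO replicate 1 or DMSO replicate 2. With CDDO-Me Sox21 differed by -0.48 (adjusted p = 0.271). Of 9 tested lung lineage factors, 1 was called lower with CDDO-Me, beside 0.399% of all genes. It was Id2, an inhibitor of helix-loop-helix factors that is also expressed at the lung tips. Id2 fell by 0.86 ± 0.148 (limma adjusted p = 0.0207), a call lost without any 1 CDDO-Me or DMF array or DMSO replicate 3. With CDDO-Im Id2 differed by -0.51 (adjusted p = 0.163). Alveolar type 2 and airway markers had 0 called genes of 4 and of 2 tested in the comparisons with DMSO with 12 arrays. With 10 arrays 2 type 2 genes, Muc1 (-0.89) and Abca3 (-0.26), were called lower with CDDO-Me, beside 5.54% of all genes. With 12 arrays limma gave 1, 1 and 0 type 2 genes lower at an unadjusted p under 0.05 with CDDO-Im, CDDO-Me and DMF, and 0 airway genes. The smallest p among type 2 markers belonged to Sftpb with CDDO-Im (-1.17 ± 0.386, adjusted p = 0.251), to Muc1 with CDDO-Me (-1.07 ± 0.393, 0.453) and to Sftpb with DMF (-0.58 ± 0.398, 0.661). The airway gene was Foxj1 each time (0.22, -0.14 and -0.23, adjusted p = 0.649, 0.833 and 0.706). Among SOX and lineage genes with DMF it was Sox4 (-0.74, 0.661) and Foxp1 (-1.14, 0.511). With 10 arrays Foxp1 was called lower with CDDO-Im, CDDO-Me and DMF (-0.95, -0.59 and -0.72), and so was Sox11 (-0.42, -0.47 and -0.47), which with 12 arrays differed by -0.003, -0.11 and -0.11. Sox21 was called lower with CDDO-Me too (-0.41). Of all genes, 5%, 5.54% and 4.26% were called lower in these 10-array comparisons.

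Of 6 tested type 1 markers, Vegfa, a growth factor that responds to many stresses, rose by 1.26 ± 0.193 with CDDO-Im (limma adjusted p = 0.00863), 1.01 ± 0.199 with CDDO-Me (0.0398) and 1.35 ± 0.199 with DMF (0.0195). The CDDO-Im call was lost without CDDO-Im replicate 3, the CDDO-Me call stayed only without CDDO-Im replicate 2, DMSO replicate 1 or DMSO replicate 2, and the DMF call only without those or CDDO-Im replicate 1. Vegfa was the 1 gene of its list called with each treatment, where 1.42%, 1.02% and 0.324% of all genes were called higher. With 10 arrays 1, 3 and 1 type 1 genes were called higher, beside 5.75%, 5.55% and 4.16% of all genes. The list's median with 12 arrays was 0.078, 0.21 and 0.24.

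Few markers of other cells were detected. Fibroblast, leukocyte and endothelial lists had 2 tested genes each. Pdgfra, a growth factor receptor used as a fibroblast marker, was not detected on any DMSO array. It was at least 2.32-fold higher with CDDO-Im and at least 1.54-fold higher with CDDO-Me than with DMSO. The limma adjusted p of the fitted differences was 0.00123 and 0.0114, where 1.42% and 1.02% of all genes were called higher. Like Krt5, Pdgfra passed the filter only through treated arrays, so nothing is read from these p-values. The CDDO-Me call was lost without CDDO-Me replicates 1 or 3. The fibroblast list had 1 to 2 of 9 genes detected on CDDO-Im arrays, 1 on CDDO-Me arrays, 0 to 2 on DMF arrays and 0 to 3 on DMSO arrays, with a summed log2 level of 6.76 to 7.64, 6.50 to 6.63, 5.98 to 6.48 and 5.73 to 6.12. Col1a1 was detected on 1 of the 12 arrays, and the part of any such cells in the results was not tested. Of 8 tested genes of mesenchymal transition, 0 were called by limma in any comparison with 12 arrays; the smallest p belonged to Snai2 with CDDO-Im (-0.91 ± 0.232, adjusted p = 0.11) and to Zeb2 with CDDO-Me (0.47 ± 0.148, adjusted p = 0.326) and to Acta2 with DMF (-0.36 ± 0.186, 0.661). At an unadjusted p under 0.05, 1 gene was higher and 1 lower with CDDO-Im against DMSO, 1 higher with CDDO-Me and 0 with DMF, and 1 was higher and 1 lower in each comparison between treatments. With 10 arrays Snai2 was called lower (-1.0 and -0.51) and Zeb2 higher (0.47 and 0.54) with CDDO-Im and CDDO-Me, and Acta2 lower with DMF (-0.26). Of all genes, 5%, 5.54% and 4.26% were called lower with CDDO-Im, CDDO-Me and DMF. With CDDO-Im and CDDO-Me 5.75% and 5.55% were called higher. Cd68, a macrophage marker, differed from DMSO by -1.1, -0.46 and -0.55 with CDDO-Im, CDDO-Me and DMF (adjusted p = 0.34, 0.733 and 0.663), and leukocyte genes summed to 6.71 to 6.86, 6.70 to 7.06, 6.73 to 7.14 and, with DMSO, 6.89 to 7.99 on the log2 scale. Among endothelial genes the smallest p belonged to Kdr with CDDO-Im (0.23, 0.762), Tek with CDDO-Me (-0.30, 0.719) and Kdr with DMF (-0.07, 0.946).

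None of the 112 list genes tested was called by limma between treatments with 12 arrays; at an unadjusted p under 0.05, 4 were higher and 5 lower with CDDO-Im against DMF, 4 higher and 3 lower with CDDO-Me against DMF, and 5 higher and 2 lower with CDDO-Im against CDDO-Me. For CDDO-Im against DMF the smallest p of each list belonged to Cldn23 (0.36), Aqp11 (-0.44), Krt16 (1.2), Jam2 (-0.50), Pkp1 (0.48), Sox21 (-0.45), Hmga2 (-0.61), Sftpb (-0.59), Rtkn2 (-0.75), Foxj1 (0.45), Snai2 (-0.80), Cd68 (-0.55) and Kdr (0.30), each with an adjusted p of 0.973, to Foxa2 (0.66, 0.305) and to Pdgfra (1.14, 0.187). For CDDO-Me against DMF it belonged to Foxa2 (0.77, adjusted p = 0.093), Aqp11 (-0.68, 0.287), Id2 (-0.60, 0.366), Zeb2 (0.48, 0.803) and Pdgfra (0.63, 0.873), and, each with an adjusted p of 1.0, to Cldn6 (-0.20), Krt16 (0.94), Amotl1 (-0.60), Nectin2 (-0.45), Sox21 (-0.28), Muc1 (-0.52), Vegfa (-0.34), Foxj1 (0.088), Cd68 (0.085) and Tek (-0.29). For CDDO-Im against CDDO-Me, each with an adjusted p of 1.0, it belonged to Cldn18 (-0.27), Aqp3 (-0.68), Krt17 (1.05), F11r (0.37), Jup (-0.38), Elf3 (0.71), Sox21 (-0.18), Id2 (0.35), Muc1 (0.78), Rtkn2 (-0.97), Foxj1 (0.36), Snai1 (0.38), Pdgfra (0.50), Cd68 (-0.64) and Tek (0.17). With 10 arrays 2 list genes were called higher and 2 lower with CDDO-Im against DMF, beside 1.15% and 0.655% of all genes, and 8 higher and 7 lower with CDDO-Me against DMF, beside 1.9% and 2.3%; between the triterpenoids 0 were. Foxa2 was called higher in both (0.66 and 0.77), and with CDDO-Me against DMF Krt16 was called higher (0.94) and Aqp11 (-0.68), Aqp1 (-0.45), Krt13 (-0.43) and Amotl1 (-0.60) lower.

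With every array scaled to 1 median instead of quantile normalization, the triterpenoid calls of Aqp11, Krt14, Foxa2, Esrp2, Sox21, Id2 and Vegfa were lost, as were the DMF call of Vegfa and the CDDO-Me and DMF calls of Krt5. With only the groups compared in the fit, all 21 calls of list genes were lost. Krt17 also lost its call without background correction, with an offset of 50, on the authors' matrix, without the filter and with a replicate block. Sox21 and Id2 lost theirs with a replicate block and with the mean of kept probes, Sox21 also with every kept probe, and Esrp2 lost both its calls with the mean of kept probes. With CDDO-Me, Krt16 lost its call on the authors' matrix and without the filter, Krt14 with every kept probe, Vegfa without the filter and with every kept probe, and Krt5 and Pdgfra with an offset of 50 and on the authors' matrix, as did Krt5 with DMF.

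Genes whose signal ran most like the members over the 12 arrays are named as a description, since all points share the treatments and the 2 arrays that stood apart. For Sox9 they were Agfg2 (Pearson r = 0.964), A430038C16Rik (0.946) and Aqp11 (0.944). For Aqp5 they were Lgr6 (0.982), Tmem86a (0.975) and Ccn2 (0.964), for Aqp8 Cd14 (0.984), Septin6 (0.973) and Krt7 (0.968), and for Cldn2 Sgsm1 (0.978), Gcnt3 (0.976) and 2900072M03Rik (0.974). Agfg2 was like Sox9 in its order of arrays but not in size, with a CDDO-Me difference of -0.34. Tmem86a differed by -1.40 with CDDO-Im, -1.91 with CDDO-Me and -0.69 with DMF. Sgsm1 differed by -1.53, -1.5 and -0.62 in that order.

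Among the members, r over 12 arrays was 0.93 for Sox9 with Cldn2, 0.92 for Aqp5 with Aqp8, 0.91 for Aqp5 with Cldn2 and 0.97 for Aqp8 with Krt7. With 10 arrays these were 0.95, 0.96, 0.96 and 0.95. The other pairs of these genes ran from 0.69 (Sox9 with Krt7) to 0.89 (Sox9 with Aqp5) over 12 arrays. With 10 arrays they ran from 0.84 to 0.97. Sox9, Aqp5, Aqp8 and Cldn2 were chosen for low signal on the same arrays. That choice favours high r, so these values only describe it. Krt8 and Krt18 had r = 0.89 over 12 arrays and 0.38 over 10, so that value rested on the 2 arrays that stood apart.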

How the data were processed

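Each array read total RNA of one sample. The intensity values, mean bead signals of 45281 probes, were exported by the authors without normalization, per the file headers; each rests on 15 to 62 beads for the members. The deposited detection p-values come from the same export. Bead numbers and bead errors were deposited beside them. A deposited matrix of normalized intensity values served only as an alternative; the authors' method for it is not given in the sources used here. The design text writes 0.1 µM beside CDDO-Im; titles were followed.

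Signals were background-corrected (limma 3.58.1 in R 4.3.3, normexp from detection p-values, offset 16), quantile normalized and log2 transformed. A probe was kept where at least 3 arrays detected it at p under 0.05 (19211 probes), and the brightest per gene was used (13280 genes). RefSeq gave current symbols to 29586 probes through Entrez numbers and to 2759 through accessions. One limma fit had group and chip as terms. Two-sided p-values were adjusted over all genes tested by the Benjamini-Hochberg method and called under 0.05. The array number limits precision. The script was tested on simulated data.

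Members and lists, and the 10-array alternative, were chosen with earlier results of these data known. Named genes are all members, up to 4 called genes per list and comparison or the one with the smallest p, called family genes and the 3 most correlated genes of 4 members; Nqo1 and Hmox1 check the treatments.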

Additional observations from a re-analysis of the deposited data

How the results depend on the processing

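Alternatives were a fit without background correction, a normexp offset of 50, cyclic loess, median scaling, the authors' matrix, no filter, detection on all arrays, no chip term, a replicate block, only the groups compared, 10 arrays, the mean of kept probes, every kept probe, and leaving out each array in turn. Of 1344 member values under them, 1284 stayed on their side of the threshold or moved by less than 1 SD, 12 moved further, 27 lost a call and 21 gained one; no called value changed sign, and sign changes of uncalled values near 0 were counted as unchanged. Members called lower with CDDO-Me against DMF numbered 2, and became 0 with median scaling, 0 with a replicate block, 0 with the mean of kept probes, 1 with detection on all arrays, 1 with every kept probe, 4 with only the groups compared and 5 with 10 arrays, and 0 to 3 with 1 array left out. Of all 13280 genes, 9 were called lower in the main fit. That number was 249 with only the groups compared, 306 with 10 arrays and 0 to 55 with 1 array left out. For CDDO-Im against DMF the count of 0 became 1 on the authors' matrix, 5 with 10 arrays and 0 to 2 with 1 array left out (2 without DMSO replicate 1). Of all genes, 1, 87 and 14 were called lower on the authors' matrix, with 10 arrays and without DMSO replicate 1. For DMF against DMSO the count of 0 became 1 on the authors' matrix and 3 with 10 arrays, beside 13 and 566 of all genes called lower. For CDDO-Im against CDDO-Me the count of members was 0 throughout. Why the counts changed was not tested. For CDDO-Me against DMF, the 5 members called with 10 arrays had the same differences as with 12 and smaller SEs. Median scaling moved the median of all genes to 0.15 for CDDO-Me against DMSO, 0.13 for CDDO-Me against DMF and -0.14 for CDDO-Im against CDDO-Me; against DMSO it left Sox9, Aqp5, Aqp8, Cldn2 and Krt7 below 0. Whether the labels' replicate numbers pair the samples was not tested. The 18 same-numbered pairs correlated between -0.296 and 0.363, 10 over 0.1, and 7 of 12 arrays correlated best with their own number. Cldn4, and the second Cdh1 probe, lie under the detection limit. Over all genes the median SE of a difference was 0.242 to 0.25 with 12 arrays and 0.0855 to 0.105 with 10. Genes called against DMSO numbered 240 with CDDO-Im (3 to 1428 over the alternatives), 189 with CDDO-Me (27 to 1473) and 46 with DMF (1 to 1118), the most with 10 arrays each time; against DMF they numbered 0 with CDDO-Im (0 to 240) and 12 with CDDO-Me (0 to 558).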
